A study of Mus musculus with 8 samples.

Results

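Ier2, Ier3, Ier5, Ier5l, Arc, Csrnp1, Maff, Mafk and Mafg were followed through the serum response of NIH3T3 cells, a mouse fibroblast line, with and without cordycepin. These 9 genes were chosen by name, as the immediate early response (Ier) genes and other quickly induced genes together with the 3 small Maf factors. They were measured by 12 probes, every non-control probe of the array with 1 of these names, out of 35715 gene names. Ier5 had 2 probes, Mafg had 3 and each of the others had 1. All cells were grown in 10% newborn bovine serum, seeded on a 15 cm plate and starved in 0.5% serum for 24 h. The cordycepin plus serum group (n = 3 arrays) received 20 µM cordycepin dissolved in DMSO for 90 min, with fresh serum during the last 30 min. The serum group (n = 3) received 0.1% DMSO and serum on the same schedule, and the no serum group (n = 2) was starved cells to which no serum was added. The labels do not state whether the no serum cells received DMSO, and no array of cordycepin without serum was included, so the effect of cordycepin was measured only in stimulated cells. Cordycepin is 3′-deoxyadenosine, an adenosine analogue that lacks the hydroxyl group used to extend an RNA chain.

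Immediate early genes are transcribed within minutes of a growth signal without needing new protein synthesis, and many of their mRNAs are short-lived. Ier2 and Ier5 belong to a family of nuclear immediate early proteins that also includes Ier5l, and Ier3 is a stress and growth factor inducible regulator of cell survival. Arc is best known as a neuronal immediate early gene that acts at synapses, and Csrnp1 is a nuclear protein with transcription factor activity. The small Maf proteins are basic leucine zipper factors without a transactivation domain, which bind DNA with partners such as NRF2 or the Bach proteins.

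The windows around the transcription start are shown first because the members differed in their response and promoters of the same length can be set side by side. RefSeq promoter windows of build GRCm38.p6 (250 bases before to 50 after a start) were matched for 7 of the 9 members, with 12 windows in all, 4 of them for Csrnp1 and 3 for Maff. Arc and Ier2 had no entry. The last 110 bases before the start are printed 5′ to 3′ on the strand of the gene for Ier3 (chr17:35821603-35821712, plus strand), Ier5 (chr1:155099637-155099746, minus strand), 1 window of Csrnp1 (chr9:119983024-119983133, minus strand), 1 window of Maff (chr15:79347410-79347519, plus strand), Mafk (chr5:139791426-139791535, plus strand) and Mafg (chr11:120633548-120633657, minus strand). Capitals mark matches on either strand to the ETS core CCGGAAG, the cAMP response element (CRE) TGACGTCA or its TGACG part, the AP-1 site TGANTCA, the Maf site TGCTGAC and the EGR site GCGGGGGCG.
Ier3: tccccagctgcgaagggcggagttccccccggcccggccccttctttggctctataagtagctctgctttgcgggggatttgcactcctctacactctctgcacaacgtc
Ier5: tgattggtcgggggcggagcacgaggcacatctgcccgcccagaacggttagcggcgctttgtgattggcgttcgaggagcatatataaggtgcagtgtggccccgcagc
Csrnp1: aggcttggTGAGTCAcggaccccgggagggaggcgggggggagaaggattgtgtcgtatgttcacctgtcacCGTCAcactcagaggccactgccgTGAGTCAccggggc
Maff: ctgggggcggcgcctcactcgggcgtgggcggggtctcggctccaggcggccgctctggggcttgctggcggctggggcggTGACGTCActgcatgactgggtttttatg
Mafk: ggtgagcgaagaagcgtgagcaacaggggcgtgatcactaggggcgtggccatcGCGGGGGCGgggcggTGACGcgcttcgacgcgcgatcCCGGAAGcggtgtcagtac
Mafg: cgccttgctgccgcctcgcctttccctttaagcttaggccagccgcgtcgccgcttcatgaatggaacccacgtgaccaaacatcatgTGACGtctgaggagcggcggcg

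A full CRE was matched in 1 of the 12 member windows, that of Maff, 29 bases before the start, and in 1.79% of all 32851 windows. The AP-1 site, the EGR site and the ETS core were each matched in 1 of the 12 member windows, and in 7.81, 2.91 and 8.86% of all windows. The windows printed for Csrnp1 and Mafk are those that held them. The Csrnp1 window had AP-1 matches 102 and 14 bases before the start, and the Mafk window an EGR match that overlaps a Sp1 match, and an ETS core. The TGACG part of the CRE, which the full CRE contains, was in 8 of the 12 member windows and in 20.8% of all windows. These were every window of Csrnp1 and windows of Maff, Mafk and Mafg, with none of Ier3, Ier5 or Ier5l. Windows of the same gene were counted separately, so such counts are not counts of genes. The Sp1 site GGGCGG was in 7 of the 12 (35.7% of all) and the antioxidant element TGANNNNGC in 6 of the 12 (41.3% of all). None of the member windows held the CArG box of SRF, which is CC, 6 bases of A or T and GG (1.63% of all), the sequence TATAAA (13.6%), the heat shock element with its repeated GAA and TTC (0.603%) or the Maf site (4.67%). These are matches of letters in a window and say nothing of binding.

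The 8 arrays were of similar quality for these genes. All 12 probes were well above background on every array and no spot was saturated. Between 51.1 and 57.1% of all probes were well above background on an array, the 75th percentile of the processed signal lay between 350.5 and 802.2, and arrays of a group correlated across probes with r of 0.992 to 0.995. Of 8 fibroblast markers, 8 were well above background on all arrays, as were 1 of 5 epithelial, 2 of 4 endothelial, 3 of 5 leukocyte and 3 of 5 neuronal markers. Of the leukocyte markers, Cd68, Itgam and Cd3e were well above background on all 8 arrays and Ptprc on 3. Cd68, a macrophage gene, was at a mean log2 level of −0.10 with serum and 2.94 with cordycepin, on the scale described below. Of the neuronal markers, Snap25, Tubb3 and Map2 were well above background on all 8 arrays, Rbfox3 on 3 and Syt1 on 0. The summed signal of the leukocyte markers, as a multiple of the 75th percentile, was 15 to 17.2 with serum and 26.9 to 33.8 with cordycepin, and that of the neuronal markers was 10.2 to 11.3 and 14 to 19.6. The part of these markers in the results below was not tested. In RNA from whole cultures, fewer responding cells and less RNA per cell cannot be told apart.

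Serum raised most of the members, and cordycepin lowered most of those that serum had raised. Levels are log2 signals after the 75th percentile of each array was subtracted, and they can be compared between groups for a probe but not between probes. A gene was called where its brightest probe had an adjusted p below 0.05 and changed by 1 or more log2 units. With serum, 6 of the 9 genes were called higher (Arc, Ier2, Csrnp1, Ier3, Ier5 and Maff), against 0.871% of 13313 genes measured by RefSeq mRNA probes. After centring on spike-in probes 3 of them stayed called, while Ier3 (1.77, adjusted p 0.171), Ier5 (1.49, adjusted p 0.472) and Maff (1.34, adjusted p 0.724) did not. In that setting every member had the same standard error (SE) for the serum effect, 0.57. The main fit gave Ier3, Ier5 and Maff SEs of 0.13, 0.25 and 0.18. Relative to the shifted median of all probes, Ier3, Ier5 and Maff were at 2.13, 1.84 and 1.69 after the centring. With cordycepin, 5 of the 9 were called lower (Csrnp1, Arc, Ier2, Ier5 and Maff), against 2.51% of those genes. No member was called lower with serum or higher with cordycepin by limma, and none was so at an unadjusted p below 0.05 either (0 and 0 of 9). The median log2 fold change of the members was 1.82 with serum and −1.48 with cordycepin, while the medians of those 13313 genes were −0.01 and 0.07. On the brightest probe the serum arrays lay above both arrays without serum for 9 of 9 members, which was so for 10.4% of genes. Likewise, all cordycepin arrays lay below all serum arrays on the brightest probe for 9 of 9 members, compared with 14.9% of genes. Counted by probe this was so for 9 of 12, since the cordycepin and serum arrays overlapped on the dimmer probes of Ier5 and Mafg. Both comparisons use the same serum arrays.

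**Figure D1:**
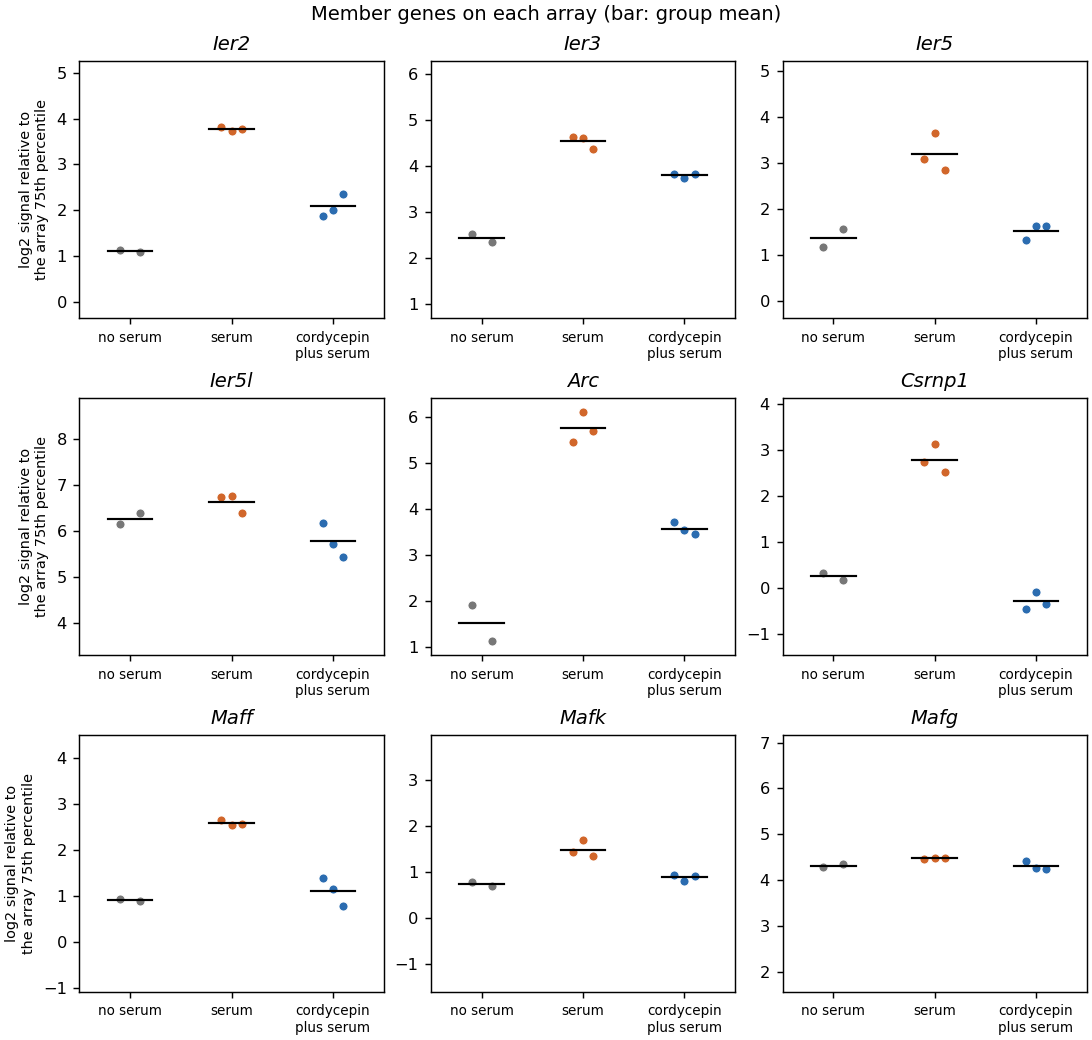
Log2 signal relative to the array 75th percentile (vertical axis, the same span of 5.6 units in every panel) for the brightest probe of each of the 9 genes on 2 arrays without serum, 3 with serum and 3 with cordycepin plus serum; points are arrays and bars are group means. Arc, Ier2, Csrnp1, Ier3, Ier5 and Maff are higher with serum, and with cordycepin Maff sits at 0.78 to 1.40, around its level without serum, while Arc at 3.47 to 3.71 and Ier3 at 3.74 to 3.82 stay above theirs.

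Arc had the greatest fold change with serum of the 9 members. Its probe (chromosome 15, 74499592 to 74499651, build mm9) gave 1.92 and 1.13 without serum, 5.46, 6.11 and 5.69 with serum, and 3.71, 3.53 and 3.47 with cordycepin and serum. No values overlapped between any of the groups, and the arrays without serum were the most scattered. Arc rose 18.8-fold with serum (log2 fold change 4.23 ± 0.26, SE, limma adjusted p 0.000244) and fell 4.55-fold with cordycepin (−2.18 ± 0.23, adjusted p 0.000359). In the cells given cordycepin it was still 4.12-fold above the cells without serum (2.04 ± 0.26, adjusted p 0.00135).

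The mRNA of Ier2, which encodes a nuclear immediate early protein, was raised by serum and lowered by cordycepin. The Ier2 probe (chromosome 8, 87186214 to 87186273) read 1.13 and 1.09 without serum, 3.81, 3.72 and 3.77 with serum, and 1.89, 2.01 and 2.36 with cordycepin. The groups were separate from each other, with the cordycepin arrays between the other groups. Serum raised Ier2 6.31-fold (2.66 ± 0.15, adjusted p 0.000173), and cordycepin lowered it 3.22-fold (−1.68 ± 0.14, adjusted p 9.28e-05). The remaining difference from the cells without serum was 0.97 ± 0.15 on the log2 scale (adjusted p 0.00368), just short of the size required for a call.

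Ier3 was raised by serum and stayed above its starting level in the presence of cordycepin. It was at 2.53 and 2.33 without serum, 4.63, 4.62 and 4.37 with serum, and 3.82, 3.74 and 3.82 with cordycepin (chromosome 17, 35959528 to 35959587). Again the 3 groups did not overlap. The rise with serum was 4.31-fold (2.11 ± 0.13, adjusted p 0.000244). The difference with cordycepin was −0.75 ± 0.12 (adjusted p 0.00253, 95% confidence interval −1.02 to −0.48), which was too small to be called although its interval excluded 0. Ier3 was called 2.57-fold higher in cordycepin plus serum than without serum (1.36 ± 0.13, adjusted p 0.000319). Of the log2 rise with serum, 64.5% was left in the presence of cordycepin, while 48.3% was left for Arc and 36.6% for Ier2. For Ier5, described below, it was 8.3% on 1 probe and 95.7% on the other. These are shares on the log2 scale, not of the mRNA gained, and were not tested against each other.

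Csrnp1 had the greatest fold change with cordycepin of the 9 genes. Its probe (chromosome 9, 119880457 to 119880516) was at 0.34 and 0.17 without serum, 2.75, 3.14 and 2.52 with serum, and −0.45, −0.07 and −0.33 with cordycepin. All 3 cordycepin arrays were thus also below both arrays without serum. Csrnp1 rose 5.84-fold with serum (2.55 ± 0.20, adjusted p 0.000837) and fell 8.49-fold with cordycepin (−3.09 ± 0.18, adjusted p 2.22e-05). Its difference between cordycepin plus serum and no serum, −0.54 ± 0.20, did not pass the test (adjusted p 0.123). The relatives Csrnp2 and Csrnp3 were not called by limma in any comparison (0 of 2 at an unadjusted p below 0.05), with cordycepin effects of −0.31 and −0.13 and serum effects of 0.09 and −0.11.

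Ier5l, the relative of Ier5, was not called in any comparison. It gave 6.16 and 6.39 without serum, 6.74, 6.76 and 6.41 with serum, and 6.18, 5.72 and 5.45 with cordycepin (chromosome 2, 30328157 to 30328216). The serum arrays lay above the others, though the lowest of them was close to the higher array without serum. Neither the serum effect of 0.36 ± 0.22 (adjusted p 0.784) nor the cordycepin effect of −0.85 ± 0.20 (adjusted p 0.0189) was called. The call was missed by size with cordycepin, and leaving out replicate 1 of the cordycepin arrays gave −1.05 (adjusted p 0.00666).

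**Figure D2:**
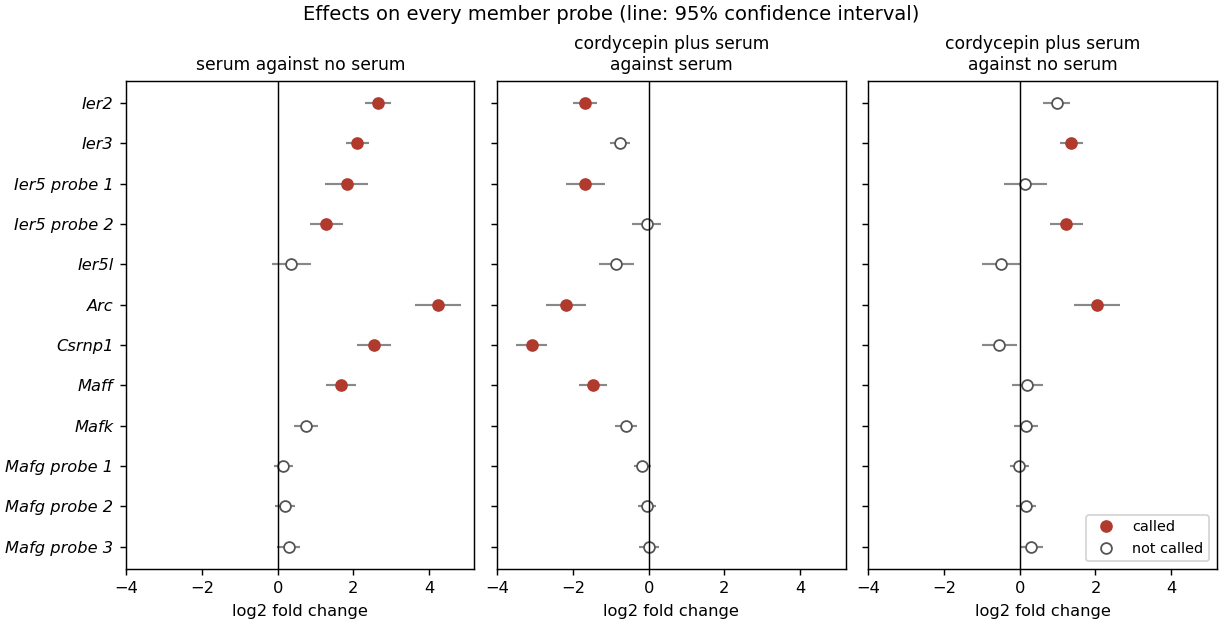
Log2 fold change (horizontal axes) of all 12 member probes in 3 comparisons that share arrays, with 95% confidence intervals as lines; filled points were called and open points were not. Probe 1 of Ier5 is the upstream probe and probe 2 the one nearer the 3′ end, and they part in the middle panel at −1.67 and −0.06.

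The 2 probes of Ier5 gave different answers under cordycepin. Both belong to the same RefSeq record and strand. The brighter one begins at base 942 of the record (chromosome 1, 156945765 to 156945824) and the other at base 3177 (chromosome 1, 156943530 to 156943589), by the positions in the files. The upstream probe was at 1.19 and 1.57 without serum, 3.10, 3.66 and 2.84 with serum, and 1.32, 1.63 and 1.63 with cordycepin. The cordycepin arrays therefore overlapped those without serum and lay clear of the serum arrays. It rose 3.54-fold with serum (1.82 ± 0.25, adjusted p 0.00994) and fell 3.19-fold with cordycepin (−1.67 ± 0.22, adjusted p 0.00108). The downstream probe was at 0.70 and 0.92 without serum, 2.23, 2.25 and 1.80 with serum, and 2.12, 2.19 and 1.80 with cordycepin. Here the cordycepin arrays overlapped the serum arrays and lay clear of those without serum. This probe rose 2.44-fold with serum (1.29 ± 0.19, adjusted p 0.014), differed by −0.06 ± 0.17 with cordycepin (adjusted p 0.851, 95% confidence interval −0.44 to 0.33), and was called 2.35-fold above no serum in the presence of cordycepin (1.23 ± 0.19, adjusted p 0.00328). The serum calls of both probes needed both arrays without serum, since leaving out replicate 1 gave 1.64 and 1.17 (adjusted p 0.0596 and 0.0815) and leaving out replicate 2 gave 2.01 and 1.40 (adjusted p 0.0519 and 0.0712). Centring on spike-in probes ended both calls of the downstream probe against no serum, with serum (0.95, adjusted p 0.856) and with cordycepin plus serum (0.84, adjusted p 0.812), and its serum call was also lost without a filter on dim probes (adjusted p 0.0762).

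The difference between these probes was itself tested, after their values had been seen, in a limma fit to the within-array difference of each dimmer probe from the brightest probe of its gene. The downstream probe exceeded the upstream probe in its cordycepin effect by 1.62 ± 0.20 (adjusted p 0.00286, 95% confidence interval 1.14 to 2.09). Of 9044 such pairs, 6.70% were called in either direction, so a split between probes of a gene was not rare on these arrays. The serum effects of the probes were not shown to differ (−0.54 ± 0.23, adjusted p 0.677, 95% confidence interval −1.07 to −0.01). Which transcript ends each probe detects was not tested. The count of members lowered by cordycepin includes Ier5 only by its upstream probe.

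**Figure D3:**
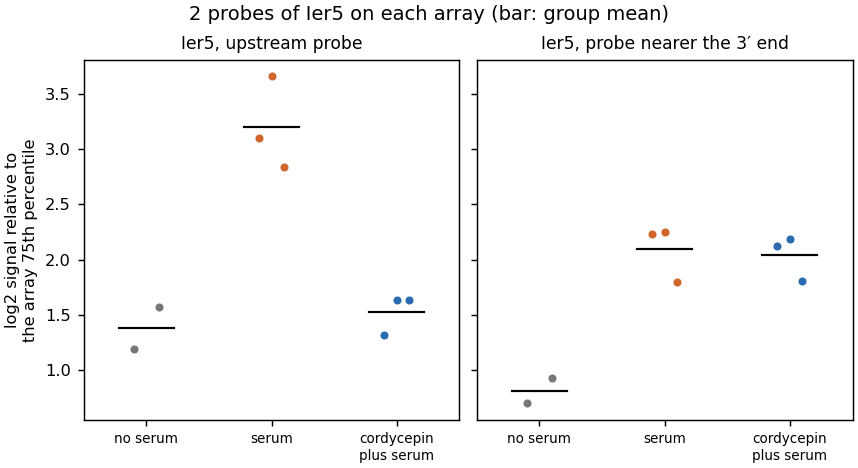
Log2 signal relative to the array 75th percentile (shared vertical axis) of the upstream and the 3′ probe of Ier5 on each array; points are arrays and bars are group means of 2, 3 and 3 arrays. With cordycepin the upstream probe sits at 1.32 to 1.63, among the values without serum, and the 3′ probe at 1.80 to 2.19, among the values with serum.

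Of the 3 small Maf factors, Maff was called in both main comparisons, while Mafk and Mafg were called in neither. The Maff probe (chromosome 15, 79189442 to 79189501) was at 0.93 and 0.89 without serum, 2.65, 2.54 and 2.57 with serum, and 1.40, 1.15 and 0.78 with cordycepin. The serum arrays stood apart, and the cordycepin arrays spread around the level without serum. Maff rose 3.19-fold with serum (1.68 ± 0.18, adjusted p 0.003) and fell 2.78-fold with cordycepin (−1.48 ± 0.16, adjusted p 0.000357), and it was 0.20 ± 0.18 from the cells without serum (adjusted p 0.506).

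Mafk showed the same order of groups. Its values were 0.77 and 0.68 without serum, 1.42, 1.69 and 1.33 with serum, and 0.94, 0.80 and 0.92 with cordycepin (chromosome 5, 140278221 to 140278280). The 3 groups did not overlap. The serum effect of 0.75 ± 0.14 (adjusted p 0.0341) and the cordycepin effect of −0.60 ± 0.12 (adjusted p 0.0108) passed the p threshold but not the required size, so neither was called.

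Mafg was not called on any of its 3 probes in any comparison. The brightest (chromosome 11, 120489919 to 120489978) gave 4.29 and 4.35 without serum, 4.46, 4.49 and 4.48 with serum, and 4.42, 4.26 and 4.26 with cordycepin. Its serum effect was 0.16 ± 0.11 (adjusted p 0.881, 95% confidence interval −0.10 to 0.41) and its cordycepin effect −0.17 ± 0.10 (adjusted p 0.288, 95% confidence interval −0.39 to 0.06). The other probes had cordycepin effects of −0.04 and 0.01 and serum effects of 0.20 and 0.29, and on both of them the cordycepin arrays overlapped the serum arrays.

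The partners and relatives of the small Maf proteins were examined next. None of the 4 tested partners, out of 6 on the list, was called by limma in any comparison, and 2 of them, Bach1 and Nfe2l2, were lower with cordycepin at an unadjusted p below 0.05. With cordycepin they were at −0.12 (Nfe2l1), −0.35 (Bach1), −0.40 (Nfe2l2, which encodes NRF2) and −0.54 (Bach2), a median of −0.38. The large Maf factors Maf and Mafa, the members of that list of 4 bright enough to test, differed by −0.10 and 0.06 with cordycepin and were not called by limma, with 0 of 2 at an unadjusted p below 0.05 in that comparison. Among 12 NRF2 target genes the median was 0.02 with cordycepin and −0.02 with serum, and 1 gene was called lower with cordycepin. That gene was Osgin1, an oxidative stress-induced growth inhibitor, which fell by 1.16 ± 0.16 with cordycepin (adjusted p 0.00117). With serum alone Osgin1 was already 0.95 below the cells without serum (adjusted p 0.034, too small for a call). With cordycepin plus serum it lay 2.12 below them (adjusted p 0.000166). At an unadjusted p below 0.05, 2 of the 12 targets were lower with cordycepin and 1 was higher.

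Target genes of HSF1, the heat shock factor with which IER5 interacts, were listed beside Ier5. Of 7 tested, 1 was called higher with serum and 0 were called with cordycepin by limma (2 were lower at an unadjusted p below 0.05). Dnajb1, which encodes an HSP40 co-chaperone, rose by 1.56 ± 0.12 with serum (adjusted p 0.000867) and differed by −0.87 with cordycepin, below the size for a call. The median of the list was 0.17 with serum and 0.12 with cordycepin.

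Other immediate early genes provide the setting for the members. Of 52 genes on that list, none of them a member, 51 were tested. With serum 33 were called higher, with cordycepin 37 were called lower, and no gene was called in the opposite direction. The list medians were 1.47 with serum and −1.67 with cordycepin, next to 1.82 and −1.48 for the 9 members. Fosb and Fos, subunits of the AP-1 factor, rose most with serum (by 7.91 ± 0.19 and 4.86 ± 0.29 on the log2 scale, adjusted p 3.58e-06 and 0.000209). The greatest falls with cordycepin were those of Dusp5, a phosphatase of ERK (−3.31 ± 0.19, adjusted p 2.28e-05), and Fosl1, another AP-1 subunit (−3.07 ± 0.20, adjusted p 4.13e-05).

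Cordycepin plus serum was also compared directly with no serum. Here 2 of the 9 members, Arc and Ier3, were called higher and 0 lower by limma (1 of 9, Csrnp1, was lower at an unadjusted p below 0.05), against 3.58% of genes called higher. Both calls were lost after centring on spike-in probes (1.65 for Arc and 0.97 for Ier3, adjusted p 0.0729 and 0.647). Of the 51 other immediate early genes, 10 were called higher and 7 lower. Fosb and Fos remained 6.23 ± 0.19 and 3.23 ± 0.29 above the cells without serum (adjusted p 1.13e-05 and 0.000229). All of these comparisons share arrays, so they were set side by side and not correlated.

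**Figure D4:**
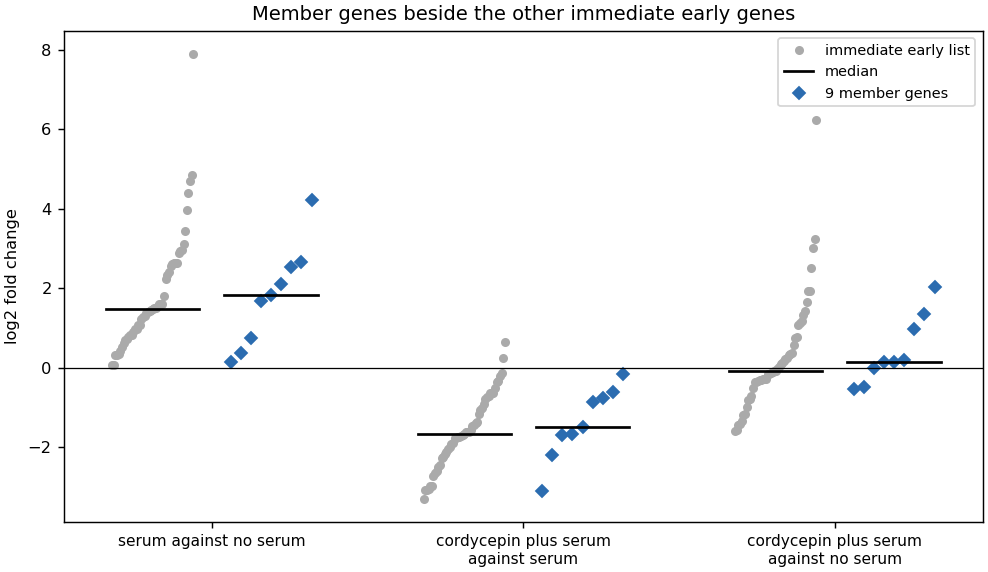
Log2 fold change (vertical axis) of 51 other immediate early genes (grey circles) and the 9 members (blue diamonds) in 3 comparisons that share arrays, each set sorted from low to high, with bars at the medians. The members lie within the range of the list in every comparison, with medians of 1.82 and 1.47 with serum and of −1.48 and −1.67 with cordycepin.

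For each member, the genes most alike over the 8 arrays were sought among 13302 RefSeq mRNA genes that are not members, by Pearson's r. The arrays share the 3 conditions, so high values were common, and the ranking is a description. Closest to Ier2 were Zfp36 (r = 0.987), Junb (0.985) and Cyr61 (0.981). Arc was nearest to Zfp36, Dnajb1 and Srf (0.989 each), and Ier3 to Gm5458 (0.991), Arl4d (0.988) and Egr2 (0.987). Csrnp1 was nearest to F3, which encodes tissue factor (0.998), Fbxo30 (0.996) and Phlda1 (0.994). Upstream Ier5 signal followed that of Dnajb4 (0.987), Ifrd1 (0.978) and Rgs16 (0.978). Genes alike to Maff included Trib1 (0.989) and Egr1 (0.986), and Mafk was nearest to Clcf1 (0.977), Rgs16 (0.975) and Gm5796 (0.972). Ier5l was most like Bcl2 (0.974), Kctd15 (0.973) and Mob3c (0.970), and Mafg most like Rela (0.980), Peli1 (0.979) and Irf2bpl (0.965). Among the members themselves, r was 0.970 between Arc and Ier3 and 0.957 between Csrnp1 and Ier5, and lowest between Ier3 and Ier5l (0.295).

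Transcripts near the members were then inspected, because a shift of a whole region would include them. Within 25 kb of 7 of the members lay 26 tested probes for 20 other gene names. Of these probes, 2 were called with cordycepin and 1 with serum, where 10.5 and 1.73% of all probes tested were called in either direction. The neighbours below were named after their values had been seen. Flot1 beside Ier3 (0.01 with cordycepin), Nacc1 beside Ier2 (0.07) and Tmem184b beside Maff (−0.17) were not called. Beside Mafg, the 3 probes of Npb, which encodes neuropeptide B, differed by 0.995, 0.66 and 0.68 with cordycepin (adjusted p 0.00139, 0.00318 and 0.0586), and Pcyt2 by −0.37 (adjusted p 0.0361). These too fell short of a call, by size or by p. An intergenic non-coding transcript near Arc, on the opposite strand, was represented by 2 probes. On 1 of them it was at least 2.09-fold lower with cordycepin (adjusted p 0.0054), being not well above background on any cordycepin array, while the other differed by −0.54 and was not called.

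The neighbour of Ier2 moved opposite to Ier2 under cordycepin. 4930447I22Rik is a cDNA on the same strand, and its probe (chromosome 8, 87187168 to 87187227) lies 954 bases upstream of the Ier2 probe, about 477 bases before the first base of the Ier2 record by the positions in the files. It was at −6.01 and −5.73 without serum, where it was not well above background, at −3.62, −3.88 and −3.77 with serum, and at −2.44, −2.84 and −2.79 with cordycepin. The groups did not overlap, and the cordycepin arrays were the highest. With serum it was at least 3.68-fold higher than without (adjusted p 0.000863), and with cordycepin plus serum at least 7.72-fold higher than without serum (adjusted p 3.4e-05). Under normexp correction the latter difference was 1.28 on the log2 scale (adjusted p 0.000269), and after spike-in centring 2.79. Both were still called but lay below that bound, which is 2.95 log2 units. The bounds are those of the main processing only. The rise with cordycepin over serum alone was 1.07 log2 units (adjusted p 0.00145), while Ier2 fell by 1.68. A rise with cordycepin was called for 7.63% of all probes tested. That call was lost after quantile normalisation (0.81), normexp correction (0.60) and spike-in centring (1.01, with an adjusted p of 0.424), and also when the first cordycepin array was left out (0.94), in all of which the value kept its direction. Normexp correction and spike-in centring also ended the call with serum (0.68 and 1.78). Both values are below the bound given for serum, which is 1.88 log2 units.

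**Figure D5:**
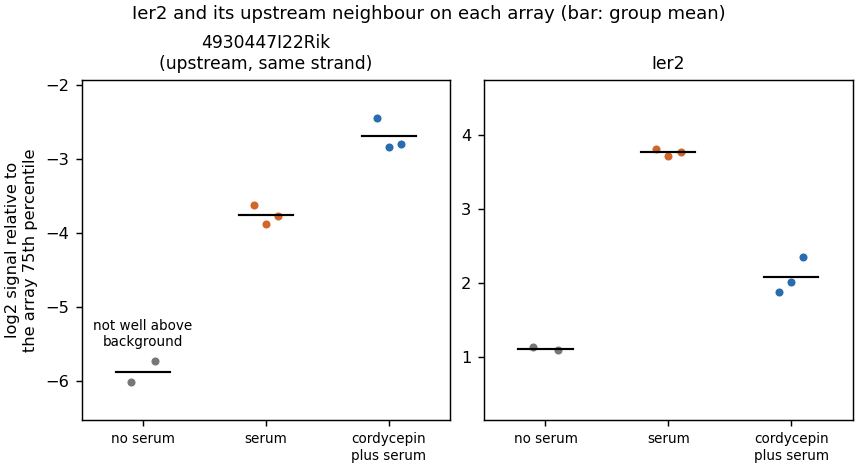
Log2 signal relative to the array 75th percentile (vertical axes of equal span and different range) of 4930447I22Rik and of Ier2 on each array; points are arrays and bars are group means. Both are higher with serum than without, and with cordycepin 4930447I22Rik is higher still while Ier2 falls to between 1.89 and 2.36.

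The row of the slide on which an array lay was the batch that could be examined, since all arrays shared 1 slide and 1 scan. The sample labels do not give the row, which was inferred from the numbering of the arrays. With each row taken alone, cordycepin differed from serum by −1.84 and −2.43 for Arc, −1.86 and −1.39 for Ier2, −3.01 and −3.16 for Csrnp1, −1.62 and −1.62 for upstream Ier5, and −1.38 and −1.77 for Maff. For these 5 probes all cordycepin arrays lay below all serum arrays, so the same direction in both rows was fixed in advance. Row 1 held replicates 1 and 2 of cordycepin plus serum and replicate 1 of each other group, and row 2 held the rest. Each of these differences therefore has a single array on 1 of its sides, and they are a description only. The serum effect within rows was 3.54 and 4.77 for Arc, 2.68 and 2.66 for Ier2, 2.10 and 2.16 for Ier3, 2.41 and 2.65 for Csrnp1, 1.91 and 1.69 for upstream Ier5, and 1.72 and 1.66 for Maff. Their direction was fixed as well, since all serum arrays lay above both arrays without serum.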

How the data were processed

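RNA of 3 cordycepin plus serum, 3 serum and 2 no serum cultures of NIH3T3 cells was hybridised to 1-colour arrays. The deposited files hold the intensity of each spot on a linear scale, extracted by the authors with Feature Extraction 10.7.3.1, which subtracts background and marks outlier and dim spots. Each array held 62976 spots, 3671 of them controls, for 55681 probes, with positions in build mm9. From these, log2 of the processed signal minus its 75th percentile over the non-control spots of the array was computed. Spots flagged as outliers were dropped, as were controls, and repeated spots of 1 probe were averaged. The 30859 probes tested were those well above background throughout at least 1 group. Groups came from the labels. R 4.3.3 and limma 3.58.1 were used to compare the groups, fitting a mean for each and no covariate, with two-sided p-values and Benjamini-Hochberg adjustment over all tested probes. The fit was tested on simulated data. Since changes are relative to the 75th percentile, a change common to most RNAs would be missed. A gene was counted by its brightest probe, under the name given by the array design.

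The 9 members and all gene lists were chosen with earlier results of these data known. The text names all members, the 3 genes most alike to each and the 2 greatest called changes of each list, except that certain single genes are not reported here. The alternatives were normexp correction, quantile normalisation, spike-in centring, other filters, the mean of a gene's probes, no minimum fold change, the replicate number or the slide row as a block, only the arrays of the groups compared, and each array left out. The series describes independent triplicates, but nothing says how the cultures were separated, so p-values measure the spread between these samples, which may be technical. The number of arrays limits the precision.

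Deviations from the group means correlated between −0.17 and 0.23 for same-numbered arrays of different groups (7 pairs). For arrays with different numbers the range was −0.32 to 0.32 (14 pairs). The numbers were therefore not taken to pair the samples. Pairing is not excluded, since the arrays are few and the deviations of the arrays without serum mirror each other.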

Additional observations from a re-analysis of the deposited data

How the results depend on the processing

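The calls of Ier2, Arc, Csrnp1 and Maff with cordycepin, and those of Ier2, Arc and Csrnp1 with serum, held under all 18 alternative settings. Some settings could not change their fold changes, namely the other filters, the mean of a gene's probes and no minimum fold change. Each of these genes has a single probe, which was well above background on every array. Nor could a fit to only the arrays of the groups compared, or leaving out an array of the group not compared. The replicate number as a block also left their fold changes with cordycepin as they were. Dropping the minimum fold change gave 8 members lower with cordycepin. Centring on spike-in probes, which moved the median serum effect of all probes to −0.35 and that of cordycepin plus serum against no serum to −0.31, gave 3 members higher with serum and 0 called with cordycepin plus serum against no serum. In that setting Mafg changed sign with serum (−0.18), and Ier5 (−0.24), Maff (−0.19) and Mafk (−0.23) did so against no serum. Relative to the shifted medians these were 0.17, 0.07, 0.11 and 0.07. The call of Ier5 with serum was also lost without a filter on dim probes (adjusted p 0.0539), with only the groups compared in the fit (0.051) and without either array lacking serum. Its call with cordycepin was lost when its probes were averaged (−0.86, adjusted p 0.00917).

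Leaving out single arrays gave 5 to 6 members lower with cordycepin, 5 to 6 higher with serum, and 2 to 3 called with cordycepin plus serum against no serum, where Ier2 reached the required size without replicate 1 (1.07) or 2 (1.01) of the cordycepin arrays. Values near 0 changed sign, namely the 3′ probe of Ier5 with cordycepin (−0.20 to 0.062), Ier5 against no serum (−0.038 to 0.34) and Mafg against no serum (−0.063 to 0.019). Mafg against no serum was 0.15 as the mean of its probes.

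With the replicate number as a block (replicate block), 5 members were lower with cordycepin, 6 higher with serum and 2 called against no serum, and Mafg against no serum was 0.0049. The difference between the cordycepin effects of the 2 Ier5 probes stayed called in the 13 settings tried, chosen after the data were seen. Spike-in centring and the replicate block left its size at 1.62. The same difference against no serum (1.08, adjusted p 0.0339) was lost without any 1 of 5 arrays. The cause was not tested in any of these cases.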
